A study of Danio rerio with 21 samples.

Results

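The expression of 5 cardiomyocyte genes was followed in nuclear RNA pulled down from zebrafish hearts as macrophage RNA. The genes were chosen by identifier, out of 31952 genes with values in the count table: myl7 (ENSDARG00000019096), vmhc (ENSDARG00000079564), myh6 (ENSDARG00000090637), tnnt2a (ENSDARG00000020610) and nppa (ENSDARG00000052960). All 5 were detected in all 21 libraries, with at least 685 counts in each, and all 5 passed the filter on low counts in every comparison. No expression value was used to choose them, although the choice was made with earlier results of these data known.

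The 21 libraries came from adult zebrafish of the TgBAC line ox133, whose 2 transgenes, mpeg1:BirA-Citrine and bactin:Avi-Cerulean-Rangap, all groups carried. The biotin ligase BirA is expressed from the macrophage promoter mpeg1, and an Avi-tagged nuclear envelope protein, Rangap fused to Cerulean, is expressed in all cells from a beta-actin promoter. Nuclei that meet the ligase are biotinylated and are then captured on streptavidin beads, 1 heart per library. The design compared ventricular resection, cryoinjury of the ventricle with a frozen probe, and sham surgery that only exposed the ventricle.

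The hearts were taken 1, 5 or 14 days post injury (dpi). The first of these days is covered by 3 libraries of sham, 2 of cryoinjury and 3 of resection, the next by 2 of each treatment, and the last by 4 of sham and 3 of cryoinjury. No resected heart was analysed here at 14 dpi. At 14 dpi all 3 cryoinjury libraries and 1 of the 4 sham libraries belonged to the second of 2 labelled rounds, and the other 3 sham libraries to the first.

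Cardiac muscle contracts when myosin thick filaments pull on actin thin filaments within the sarcomere. Myl7 is the regulatory light chain of cardiac myosin in both chambers, whereas the zebrafish heart uses separate myosin heavy chain genes in the ventricle (vmhc) and in the atrium (myh6, also known as amhc). Tnnt2a is cardiac troponin T, which anchors the calcium-sensing troponin complex to the thin filament, and its loss gives the non-contracting zebrafish mutant silent heart. Nppa encodes atrial natriuretic peptide, a hormone released by cardiomyocytes under stretch. None of the 5 is a known macrophage gene, so their counts were taken as heart muscle RNA among the captured nuclei. No single level measures the amount of that RNA, because the 5 genes did not move together over the libraries.

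Total counts per library ranged from 10577395 to 61141100, and between 12608 and 21742 genes had at least 1 count. Levels are given as CPM, the counts of a gene per 1000000 counts of its library. The macrophage label was held against 30 macrophage and leukocyte genes, whose summed level ran from 103 to 1768 CPM, and against the 3 mpeg1 rows, whose summed level ran from 0 to 38.9 CPM. The main mpeg1 row was at 0 in 1 library and the other 2 rows were at 0 in 12 and 20 libraries. By the same measure the 5 cardiomyocyte genes together took 1.44% to 3.63% of all counts in a library, with a median of 2.58% over the 21 libraries, and 29 other sarcomere genes took 5.58% to 17.8%. Heart muscle genes thus took more of the counts of every library than the macrophage markers did. This compares shares of counts, not corrected for transcript length or the number of genes in a list. In bulk libraries such as these, fewer cells of a type and less RNA per cell cannot be told apart.

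Some names need care. The gene name table gives many zebrafish rows the capital-letter symbol of a human counterpart, and lists the vmhc row under MYH6 and a further myosin heavy chain row (ENSDARG00000079782) under MYH7. The latter is called the MYH7 row here. Reads that aligned to more than 1 place are left out by the counting program at its default, so that the split of reads among vmhc, myh6 and the MYH7 row is uncertain wherever their sequences are alike. In the RefSeq annotation the span of gck overlaps that of myl7, and without strand in the counting the 2 genes could not be told apart there. Because transcript lengths were not used here, levels are, apart from such shares of counts, compared between libraries for 1 gene and not between genes.

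The light chain gene myl7 ranged from 4940.2 to 29577 CPM. In sham hearts it stood at 13186, 24188 and 29577 CPM at 1 dpi, at 16629 and 4940.2 CPM at 5 dpi, and at 12951, 18336, 17984 and 20138 CPM at 14 dpi. In cryoinjured hearts it stood at 7755 and 14477 CPM at 1 dpi, at 16122 and 6156 CPM at 5 dpi, and at 15847, 8511 and 12119.6 CPM at 14 dpi. In resected hearts it stood at 8073, 7055 and 7807 CPM at 1 dpi and at 16199.8 and 9833 CPM at 5 dpi. The 3 resection libraries at 1 dpi lay close together and below all 3 sham libraries of that day, while at 5 dpi each treatment had 1 high and 1 low library. Ordered by mean, myl7 was highest in sham hearts at 1 dpi (22317 ± 8354 CPM, SD, n = 3) and lowest in resected hearts at 1 dpi (7645 ± 528 CPM, SD, n = 3), and the ranges of neighbouring groups overlapped at every step of that order. Between the lowest and the highest library myl7 differed 5.99-fold.

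The ventricular myosin gene vmhc fell into a low and a high range. In sham hearts it stood at 285, 475 and 97.4 CPM at 1 dpi, at 1390.4 and 6212 CPM at 5 dpi, and at 513, 145, 334 and 196 CPM at 14 dpi. After cryoinjury it was at 328 and 185 CPM at 1 dpi, at 1939.5 and 7027 CPM at 5 dpi, and at 6256, 1296 and 1307 CPM at 14 dpi. After resection it was at 209.6, 286 and 260.1 CPM at 1 dpi and at 3125 and 2754 CPM at 5 dpi. All 8 libraries of 1 dpi and all 4 sham libraries of 14 dpi were at or below 513 CPM, and the 9 libraries of 5 dpi and of cryoinjury at 14 dpi were at or above 1296 CPM. The order of the group means had 1 gap, between resection at 5 dpi (2940 ± 262 CPM, SD, n = 2) and sham at 14 dpi (297 ± 164 CPM, SD, n = 4). Above it lay cryoinjury at 5 dpi (4483 ± 3597 CPM), sham at 5 dpi (3801 ± 3409 CPM) and cryoinjury at 14 dpi (2953 ± 2861 CPM), and within the upper 4 and the lower 4 groups neighbouring ranges overlapped. Sham hearts shared the high level at 5 dpi, so that it was not limited to injured hearts.

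The atrial myosin gene myh6 had the widest range of the 5, 591-fold between its lowest and highest library. In sham hearts it stood at 3107, 449 and 96.2 CPM at 1 dpi, at 92.0 and 14121 CPM at 5 dpi, and at 160.5, 95.7, 289 and 441 CPM at 14 dpi. Cryoinjured hearts held 538 and 887 CPM at 1 dpi, 651 and 4975 CPM at 5 dpi, and 23.9, 307 and 464 CPM at 14 dpi. Resected hearts held 2974, 1135 and 1308 CPM at 1 dpi and 56.7 and 3409.9 CPM at 5 dpi. Libraries of 1 group were thus often further apart than the groups, with the widest gap between the 2 sham hearts at 5 dpi. In the order of group means only cryoinjury at 1 dpi (713 ± 247 CPM, SD, n = 2) and cryoinjury at 14 dpi (265 ± 223 CPM, SD, n = 3) were neighbours whose ranges did not overlap.

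**Figure D1:**
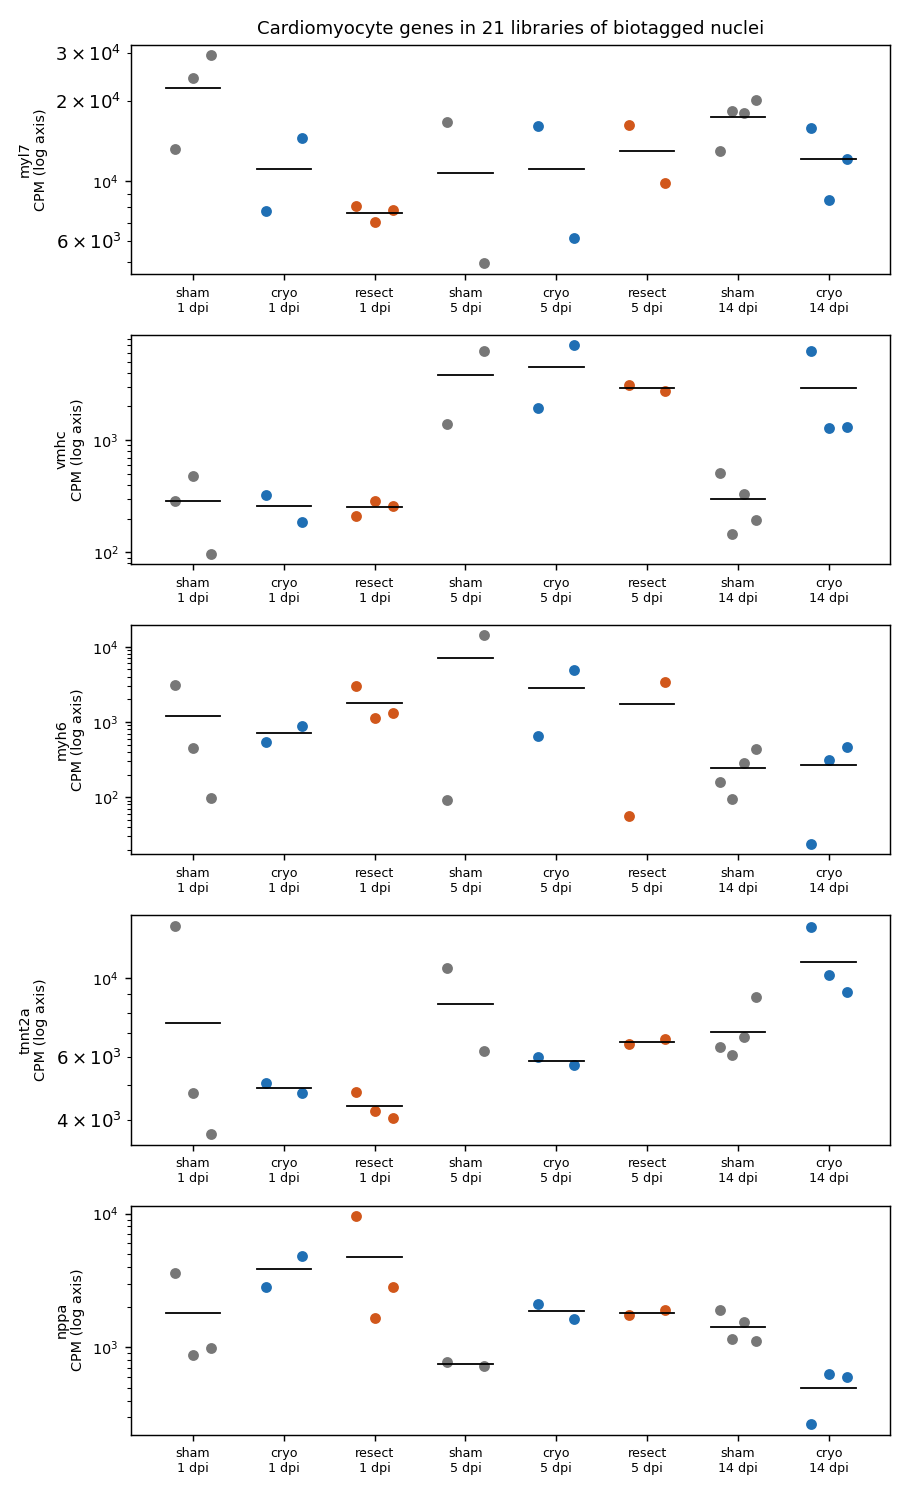
Level of each of the 5 cardiomyocyte genes in the 21 libraries, in CPM on a log axis, 1 panel per gene. Each point is 1 library, the horizontal bar is the group mean, and the groups are sham (grey), cryoinjury (blue) and resection (orange) hearts at 1, 5 and 14 dpi. The vmhc panel shows the gap between 513 and 1296 CPM, and the myh6 panel the spread from 92.0 to 14121 CPM within sham hearts at 5 dpi.

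The 2 chamber myosins can be set against each other within a library, where scaling has no effect. The share of vmhc in the sum of vmhc and myh6 counts had a median of 51.4% and ran from 6.58% to 99.6%. The share is not corrected for transcript length and is read only across libraries. The sums held between 5655 and 438493 counts, and the widest 95% Wilson interval of a share spanned 2.55 percentage points, which covers counting error only. In sham hearts the share was 8.40%, 51.4% and 50.3% at 1 dpi, 93.8% and 30.6% at 5 dpi, and 76.2%, 60.3%, 53.6% and 30.8% at 14 dpi. In cryoinjured hearts it was 37.9% and 17.3% at 1 dpi, 74.9% and 58.5% at 5 dpi, and 99.6%, 80.8% and 73.8% at 14 dpi. In resected hearts it was 6.58%, 20.1% and 16.6% at 1 dpi and 98.2% and 44.7% at 5 dpi. In all 3 resected hearts at 1 dpi the share was at or below 20.1%. A sham heart (8.40%) and a cryoinjured heart (17.3%) of that day were that low too. In all 3 cryoinjured hearts at 14 dpi the share was at or above 73.8%, as in a sham heart of that day (76.2%). A cryoinjured (74.9%), a sham (93.8%) and a resected heart (98.2%) of 5 dpi were that high too. The MYH7 row has no part in this share, although it held more counts than vmhc in every library. The share was therefore not read as the parts of ventricular and atrial muscle in a library. Among sham hearts alone the share ran from 8.40% to 93.8%. Over the 21 libraries the log2 levels of vmhc and myh6 had a Pearson r of 0.11, as a description of points that also share library and depth.

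**Figure D2:**
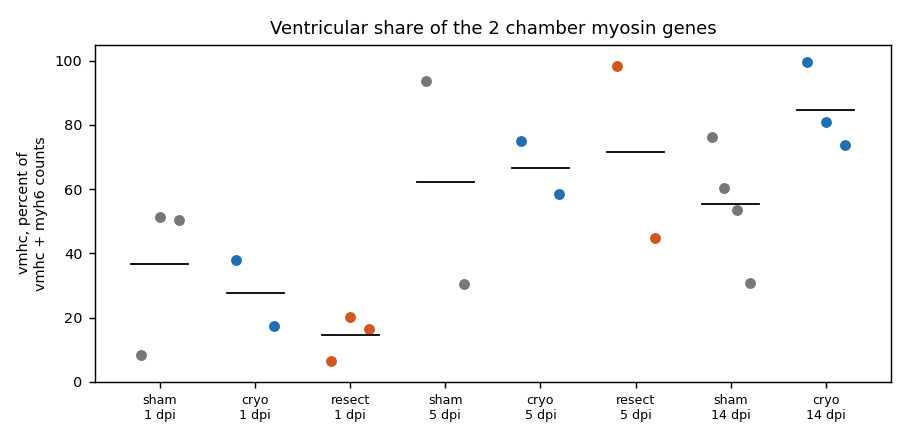
Share of vmhc counts in the sum of vmhc and myh6 counts, in percent, for each of the 21 libraries. Each point is 1 library and the horizontal bar is the group mean, with sham in grey, cryoinjury in blue and resection in orange. Resection at 1 dpi lies between 6.58% and 20.1%, cryoinjury at 14 dpi between 73.8% and 99.6%, and the 2 sham hearts at 5 dpi lie at 93.8% and 30.6%.

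The MYH7 row ran from 4996 to 37704 CPM, and vmhc made up between 0.72% and 32.4% of the summed counts of the 2 rows. This share was 0.81% to 4.03% in the libraries of 1 dpi, 3.58% to 32.4% in those of 5 dpi, 0.72% to 2.09% in sham hearts at 14 dpi and 3.32% to 17.6% in cryoinjured hearts at 14 dpi.

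The thin filament gene tnnt2a had the narrowest range, 3.84-fold between its lowest and highest library. In sham hearts it stood at 14025, 4761 and 3651 CPM at 1 dpi, at 10665 and 6243 CPM at 5 dpi, and at 6409.9, 6097, 6819 and 8853 CPM at 14 dpi. The level after cryoinjury was 5084 and 4776 CPM at 1 dpi, 6016 and 5719.9 CPM at 5 dpi, and 13902, 10234 and 9148 CPM at 14 dpi. The level after resection was 4804, 4242 and 4061 CPM at 1 dpi and 6524 and 6748 CPM at 5 dpi. The 3 cryoinjured hearts at 14 dpi lay above all 4 sham hearts of that day, and the high sham library at 1 dpi was the one with the most myh6 of its group. Group means ran from 11095 ± 2491 CPM (SD, n = 3) in cryoinjured hearts at 14 dpi down to 4369 ± 388 CPM (SD, n = 3) in resected hearts at 1 dpi. In that order resection at 5 dpi (6636 ± 158 CPM), cryoinjury at 5 dpi (5868 ± 209 CPM) and cryoinjury at 1 dpi (4930.0 ± 218 CPM), each of 2 libraries, did not overlap from one to the next, and all other neighbours overlapped.

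The hormone gene nppa was highest after injury at 1 dpi and lowest after cryoinjury at 14 dpi. In sham hearts it stood at 3565, 876 and 994 CPM at 1 dpi, at 773 and 726 CPM at 5 dpi, and at 1895, 1155, 1542 and 1123 CPM at 14 dpi. In cryoinjured hearts it stood at 2830.0 and 4819.8 CPM at 1 dpi, at 2094 and 1621 CPM at 5 dpi, and at 266, 634 and 603 CPM at 14 dpi. In resected hearts it stood at 9593, 1663 and 2827 CPM at 1 dpi and at 1743 and 1889 CPM at 5 dpi. At 1 dpi the sham and the injured libraries overlapped, at 5 dpi all 4 injured libraries lay above the 2 sham libraries, and at 14 dpi all 3 cryoinjured libraries lay below the 4 sham libraries. Group means ran from 4694 ± 4282 CPM (SD, n = 3) in resected hearts at 1 dpi to 501 ± 204 CPM (SD, n = 3) in cryoinjured hearts at 14 dpi. Cryoinjury at 1 and 5 dpi, sham at 14 and 5 dpi, and sham at 5 dpi and cryoinjury at 14 dpi were the neighbours in that order whose ranges did not overlap.

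Whether each gene varied among the 8 groups was tested with edgeR's quasi-likelihood F test, scaled by TMM (a factor per library that sets most genes level) and adjusted by Benjamini-Hochberg over all 21144 genes tested, with calls at an adjusted p under 0.05. In this test 4.67% of all genes were called. Of the 5 cardiomyocyte genes 4 were called: vmhc (adjusted p = 7.38e-06), tnnt2a (adjusted p = 0.00269), myl7 (adjusted p = 0.00466) and nppa (adjusted p = 0.00549). Myh6 was not called (adjusted p = 0.0693). Of the other sarcomere genes 15 of 29 were called, and of 17 genes of calcium handling, hormones and metabolism 6 were called. Of 17 cardiac transcription factors 0 were called. The fast skeletal muscle list had 14 of 18 called, so that variation among the groups was not particular to the cardiac lists. With total counts only, myl7 (adjusted p = 0.0805) and tnnt2a (adjusted p = 0.0981) were not called, and vmhc and nppa remained called in all 26 alternatives, where their adjusted p reached at most 9.55e-05 and 0.0274.

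At 1 dpi the comparison of resection with sham asked how the captured RNA differed after removal of the ventricular apex. Myl7 fell by 2.78 on the log2 scale (SE 0.55, adjusted p = 0.0316) and tnnt2a fell by 1.75 (SE 0.46, adjusted p = 0.0380), by edgeR over 15764 genes. In this comparison 13.7% of all genes were called, and 2.37% were called lower. For vmhc the log2 fold change was -1.08, with an SE of 0.43 and an adjusted p of 0.158, and neither myh6 (adjusted p = 0.928) nor nppa (adjusted p = 0.845) was called. In plain CPM only myl7 did not overlap between the groups, with a log2 ratio of the means of -1.55, and 41.3% of all genes with at least 10 counts did not overlap.

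Many other sarcomere genes fell with them in the TMM-scaled fit. Of 26 tested, 14 were called lower and 1 higher, and their median log2 fold change was -1.83 beside 0.26 over all genes. Among the 4 with the most counts, the MYH7 row fell by 2.24 (SE 0.43, adjusted p = 0.0316) and cmlc1, a myosin light chain, fell by 2.099 (SE 0.45, adjusted p = 0.0316), while actc1a, a cardiac actin, was at -2.20 (adjusted p = 0.0550) and TTN, the row ENSDARG00000028213 of the giant spring protein titin, at -0.66 (adjusted p = 0.372). The gene called higher was a low row of xirp1, named after its values were seen, with a mean of 0.00903 CPM in sham and 4.22 CPM in resected hearts. Of 16 genes of calcium handling, hormones and metabolism 3 were called lower, the oxygen carrier mb, the fatty acid carrier FABP3 and the mitochondrial creatine kinase CKMT2, and the list had a median of -1.02. With total counts only, 1 of the 16 was called and the median was 0.02, and none was called in any fit that left out 1 library. Of 15 transcription factors 1 was called, nkx2.7, at 0 in sham hearts and a mean of 3.31 CPM in resected hearts, also named after its values were seen. HAND2, GATA6, MEF2C and NKX2-5, the 4 with the most counts, were not called.

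**Figure D3:**
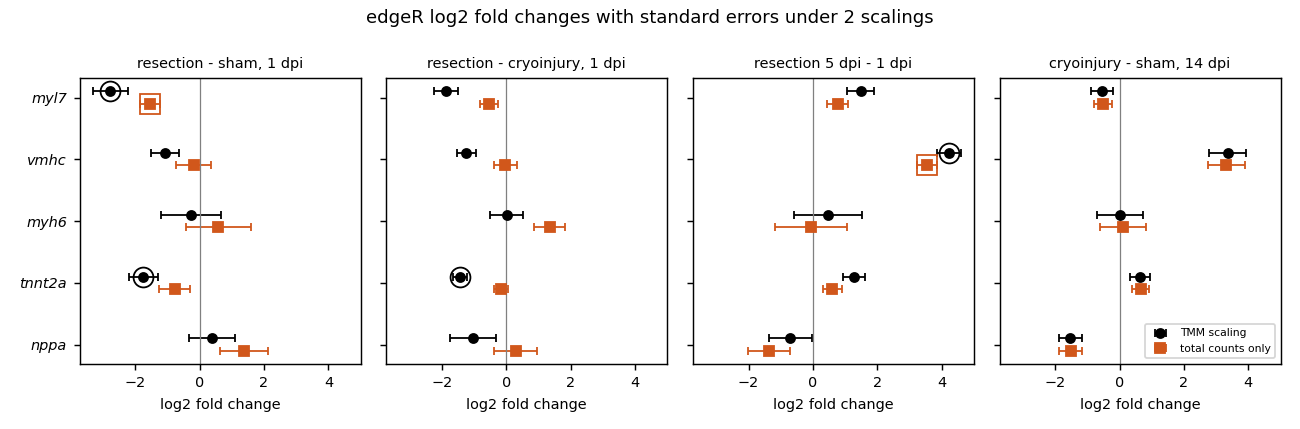
Log2 fold changes of the 5 genes in 4 comparisons, from edgeR with TMM scaling (black circles) and with total counts as the only scaling (orange squares). Bars are standard errors, and a larger open symbol marks an adjusted p under 0.05. Myl7 and tnnt2a lie at -2.78 and -1.75 for resection against sham at 1 dpi under TMM and nearer to 0 without it, while vmhc lies above 3 for resection at 5 against 1 dpi and for cryoinjury against sham at 14 dpi under either scaling.

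Several other values moved with this comparison. Resected hearts at 1 dpi held 876 to 1162 CPM of the macrophage list against 103 to 249.7 CPM in sham hearts, 20122 to 21742 detected genes against 12608 to 14075, and TMM factors of 1.45 to 1.46 against 0.45 to 0.87. Erythroid genes summed to 1526 to 7064 CPM against 221 to 741 CPM, and the mitochondrial genome took 2.46% to 3.18% of counts against 3.49% to 10.4%. The fast skeletal muscle list summed to 4744 to 8930 CPM against 9497 to 26025 CPM, a lower sum in resected hearts. Its genes did not all follow the sum. Of 11 tested 6 were higher and 5 lower, with a list median of 1.45, and 3 were called lower and 2 higher. The part of these values in the result was not tested. With total counts only, the median log2 fold change of all genes moved from 0.26 to 1.25, and 2132 genes were called higher and 44 lower in place of 1780 and 374. Under that scaling myl7 was still called (log2 fold change -1.54, adjusted p = 0.0278), tnnt2a was not (-0.77, adjusted p = 0.381), and 3 of the 26 sarcomere genes were called lower and 1 higher. Leaving out 1 library at a time, whichever it was, ended the call of myl7 (adjusted p from 0.0518 to 0.0964) and, except for the sham library of replicate 2 (adjusted p = 0.0498), that of tnnt2a (up to 0.116). The calls among the 26 sarcomere genes then numbered 0 to 7, and those over all genes 0 to 177.

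Cryoinjury against sham at 1 dpi gave no call among these genes. None of the 5 was called, with an edgeR adjusted p of at least 0.847, and of all 13020 genes tested 0.146% were called. Myl7 was called in 1 of 12 alternatives. Of 16 fast skeletal muscle genes tested 5 were called higher, with 14 higher and 2 lower and a list median of 9.74. That list summed to 30296 and 7944 CPM in the cryoinjury libraries against 9497 to 26025 CPM in sham. No range of the 5 was free of overlap between the 2 cryoinjury and the 3 sham libraries, whereas 19.7% of all genes with at least 10 counts did not overlap.

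Resection against cryoinjury at 1 dpi compared the injury types directly. Tnnt2a fell by 1.44 (SE 0.22, adjusted p = 0.0258), with 4804, 4242 and 4061 CPM after resection against 5084 and 4776 CPM after cryoinjury, ranges that overlapped. Myl7 (-1.88, SE 0.37, adjusted p = 0.0531) and vmhc (-1.24, SE 0.30, adjusted p = 0.0787) were not called, and 2.09% of all genes were called, 1.87% lower. Myh6 was higher in all 3 resected than in both cryoinjured hearts, with a mean ratio of 2.53, but was not called (adjusted p = 0.984), and 52.8% of all genes did not overlap between these groups in plain CPM. Of 28 other sarcomere genes 7 were called lower, among them the MYH7 row (-1.63) and cmlc1 (-1.88), with a list median of -1.35 beside 0.43 over all genes. With total counts only, no gene of the table was called, tnnt2a stood at -0.17 (adjusted p = 0.589) and the sarcomere list median at -0.02. Leaving out any 1 of the 3 resection libraries ended the call of tnnt2a (adjusted p up to 0.133), and over all 5 libraries left out in turn the calls among the 28 sarcomere genes numbered 0 to 20. Erythroid genes summed to 1526 to 7064 CPM after resection against 292 to 395 CPM after cryoinjury, fibroblast and epicardial genes to 2147 to 4547 CPM against 694 to 998 CPM, and the macrophage list to 876 to 1162 CPM against 629.6 to 703 CPM. The mitochondrial genome took 2.46% to 3.18% of counts against 5.77% to 12.0%. The fast skeletal muscle list summed to 4744 to 8930 CPM after resection against 7944 and 30296 CPM after cryoinjury. All 16 of its genes tested were lower after resection, 2 of them called, with a list median of -4.56. The part of these values in the result was not tested.

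At 5 dpi no difference between treatments was called. For resection against sham, cryoinjury against sham, and resection against cryoinjury, edgeR called 0% of 15423, 14286 and 14709 genes, with 503, 517 and 763 genes at an unadjusted p under 0.05, while DESeq2 called 82, 191 and 123. In plain CPM nppa did not overlap between injured and sham hearts, and its mean was 2.42-fold higher after resection and 2.48-fold higher after cryoinjury. Tnnt2a was lower in both cryoinjured than in both sham hearts, with a mean ratio of 0.69, and of all genes 29.3% did not overlap between resection and sham and 28.7% between cryoinjury and sham. With 2 libraries per group the other 3 genes overlapped between injured and sham hearts.

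At 14 dpi vmhc and nppa stood apart between cryoinjury and sham without passing the threshold. The 3 cryoinjured hearts held 6256, 1296 and 1307 CPM of vmhc against 145 to 513 CPM in the 4 sham hearts, or 3.35 higher on the log2 scale (SE 0.58, adjusted p = 0.183). For nppa they held 266, 634 and 603 CPM against 1123 to 1895 CPM, or -1.53 on the log2 scale (SE 0.35, adjusted p = 0.368). Tnnt2a did not overlap either, with a mean ratio of 1.57, while myl7 and myh6 overlapped. Of all genes 6.7% did not overlap between these groups, and edgeR called 0% of 15020 genes, with 859 at an unadjusted p under 0.05, while DESeq2 called 94, vmhc and nppa among them (adjusted p = 4.59e-06 and 0.00821).

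The cryoinjured library with 6256 CPM of vmhc was also the one with the least myh6 and the least nppa of its group, and its label marks it as merged. Without it the log2 fold change of vmhc was 2.09 and that of nppa was -1.26. With round as a covariate the fold changes were 3.74 and -1.36, and both had an adjusted p of 0.755. Cryoinjury at 14 dpi also held 532 to 1365 CPM of the macrophage list against 158 to 275 CPM in sham hearts, and 1516 to 6260.2 CPM of fibroblast and epicardial genes against 615 to 1149 CPM, and their part in the result was not tested. Among 28 other sarcomere genes none was called, with a list median of -0.16 beside -0.01 over all genes.

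Between days, resected hearts at 5 dpi were compared with those at 1 dpi. Vmhc rose by 4.23 on the log2 scale (SE 0.37, adjusted p = 0.00194), from 209.6, 286 and 260.1 CPM to 3125 and 2754 CPM, an 11.7-fold difference of the mean CPM. It was called in all 11 alternatives, with log2 fold changes from 3.54 to 4.46. Sham hearts held 97.4 to 475 CPM of vmhc at 1 dpi and 1390.4 and 6212 CPM at 5 dpi. The difference between the days was thus not limited to resected hearts. Of all 17978 genes 1.68% were called and 0.651% were called higher. Myl7 (1.48, SE 0.41, adjusted p = 0.103) and tnnt2a (1.28, SE 0.34, adjusted p = 0.0980) were not called, although in plain CPM they did not overlap either, nor did 40.3% of all genes.

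In the same comparison 7 of 29 other sarcomere genes were called higher, with a list median of 1.45 beside -0.10 over all genes. They included the MYH7 row (2.51, SE 0.42, adjusted p = 0.0233), while cmlc1 (1.59, adjusted p = 0.0970), actc1a (1.82, adjusted p = 0.0726) and TTN (1.09, adjusted p = 0.180, row ENSDARG00000028213) were not called. Of 16 genes of calcium handling, hormones and metabolism 4 were called higher, among them mb (1.98, adjusted p = 0.0488), and of 16 transcription factors 1 was, the MEF2C row ENSDARG00000029764 (2.42, adjusted p = 0.0133). With total counts only, 3 sarcomere genes were called higher and 1 lower, and none of the calcium, hormone and metabolism genes was called, with a median of 0.60 in place of 1.26. Under that scaling 29 of all genes were called higher and 388 lower, in place of 117 and 185. Leaving out 1 library at a time, between 0 and 15 sarcomere genes were called, whereas vmhc stayed called each time. The macrophage list stood at 876 to 1162 CPM at 1 dpi and 336 to 661 CPM at 5 dpi, and erythroid genes at 1526 to 7064 and 1091 to 1518 CPM. Fibroblast and epicardial genes stood at 2147 to 4547 and 4669 to 5110.1 CPM. The fast skeletal muscle list summed to 4744 to 8930 and 15898 to 16037 CPM, and of its 13 genes tested 1 was called higher and 0 lower. Most of its genes did not follow the sum, with 5 higher and 8 lower and a list median of -1.59. The part of these values was not tested. This comparison shares its 1 dpi libraries with that of resection against sham.

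Between 1 and 5 dpi in cryoinjured hearts, vmhc went from 328 and 185 CPM to 1939.5 and 7027 CPM, or 3.60 on the log2 scale (SE 0.59, adjusted p = 0.0701), and nppa stood at -1.59 (SE 0.47, adjusted p = 0.360). Neither was called in this fit, in which 0.0229% of 13114 genes were. Vmhc was called in most alternatives that kept all libraries, but each of these also called more of all genes than this fit. Over all alternatives its log2 fold change ran from 2.47 to 4.15. Vmhc, tnnt2a and nppa did not overlap between these days, and nor did 37.5% of all genes. Fibroblast and epicardial genes summed to 694 to 998 CPM at 1 dpi and 1609.8 to 6368 CPM at 5 dpi, smooth muscle genes to 808 to 867 and 1371 to 2634 CPM, and endothelial and endocardial genes to 282 to 402 and 628 to 898 CPM. Their part in the result was not tested. Sham hearts at 5 dpi had 1390.4 and 6212 CPM of vmhc against 97.4 to 475 CPM at 1 dpi, so that day and whatever else differed between the days of collection cannot be told apart.

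From 5 to 14 dpi in cryoinjured hearts, myh6 stood at -3.001 (SE 0.97, adjusted p = 0.714), tnnt2a at 1.31 (SE 0.41, adjusted p = 0.701) and nppa at -1.51 (SE 0.45, adjusted p = 0.679) on the log2 scale. All 3 ranges were free of overlap, as were those of 22.6% of all genes. EdgeR called 0% of 15542 genes here, with 1018 at an unadjusted p under 0.05, and DESeq2 called 299. In sham hearts from 1 to 14 dpi no gene was called either (0% of 13883, 2093 at an unadjusted p under 0.05, 1200 by DESeq2), and myh6 had the lowest adjusted p of the 5, at -2.31 on the log2 scale (SE 0.80, adjusted p = 0.197). Vmhc overlapped between the 2 days in sham hearts, at 97.4 to 475 CPM and 145 to 513 CPM.

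The effects of injury were then compared between days by an interaction term. For resection at 5 against 1 dpi, in which 0% of 19166 genes were called (2675 at an unadjusted p under 0.05, 1071 by DESeq2), myl7 differed by 3.26 (SE 0.85, adjusted p = 0.278) and tnnt2a by 1.49 (SE 0.68, adjusted p = 0.347). Vmhc was not called in this interaction (adjusted p = 0.817), and sham hearts, too, held more vmhc at 5 than at 1 dpi. For cryoinjury at 5 against 1 dpi 0.00598% of genes were called and none of the 5. For cryoinjury at 14 against 1 dpi 0.067% were called, and vmhc differed by 3.41 (SE 0.85), nppa by -2.69 (SE 0.67) and tnnt2a by 1.16 (SE 0.55), with adjusted p-values of 0.130, 0.130 and 0.410. The interaction of cryoinjury at 14 against 5 dpi was added after the values had been seen, and it called 0% of 17979 genes (1337 at an unadjusted p under 0.05, 176 by DESeq2). In it vmhc differed by 3.54 (SE 1.04, adjusted p = 0.648), nppa by -2.52 (SE 0.59, adjusted p = 0.530) and tnnt2a by 1.42 (SE 0.49, adjusted p = 0.648). With TMM scaling and the filter on low counts, edgeR thus called none of the 5 genes in these 4 interactions. DESeq2 called vmhc (adjusted p = 0.0235) and nppa (adjusted p = 0.0445) for cryoinjury at 14 against 1 dpi. For 14 against 5 dpi it called nppa (adjusted p = 0.0191). In each of the 4 interactions DESeq2 also called many more of all genes than edgeR did. Without a filter on low counts edgeR called myl7 for resection at 5 against 1 dpi (adjusted p = 7.32e-08), and both vmhc and nppa for cryoinjury at 14 against 1 dpi (adjusted p = 1.62e-05 and 0.000201) and at 14 against 5 dpi (adjusted p = 6.10e-08 and 0.00524). Leaving out 1 sham library called myh6 for cryoinjury at 5 against 1 dpi (without replicate 3 of 5 dpi, adjusted p = 0.0011), nppa for 14 against 1 dpi (without replicate 1 of 1 dpi, adjusted p = 0.0494) and vmhc for 14 against 5 dpi (without replicate 2 of 5 dpi, adjusted p = 0.0340), and no other library left out did so for any of the 5.

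Across the 21 libraries the 5 genes did not move as 1 block. The Pearson r of log2(CPM + 1) was -0.69 for myl7 and myh6, -0.37 for myl7 and vmhc, 0.11 for myl7 and tnnt2a, 0.40 for vmhc and tnnt2a, 0.46 for myh6 and nppa, -0.46 for vmhc and nppa and -0.45 for tnnt2a and nppa. The points of each r share library and depth, so that these are descriptions. The summed level of the 5 genes had an r of 0.57 with that of the 29 other sarcomere genes, 0.58 with that of the calcium, hormone and metabolism genes, 0.23 with that of the cardiac transcription factors, -0.39 with that of the macrophage list and 0.35 with that of the fast skeletal muscle list. The last of these holds genes that the heart also expresses, such as ckma.

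The genes most like each member were sought among 15171 genes with a mean of at least 1 CPM, by the same r over the 21 libraries. For nppa the closest was nppb (r = 0.86), which encodes the related B-type natriuretic peptide and lies next to nppa in the RefSeq annotation. In sham hearts nppb stood at 612, 495 and 240.3 CPM at 1 dpi, at 46.0 and 34.6 CPM at 5 dpi, and at 128, 96.2, 106 and 139 CPM at 14 dpi. After cryoinjury it was at 1335 and 1882 CPM at 1 dpi, at 264 and 318 CPM at 5 dpi, and at 28.8, 44.1 and 129.6 CPM at 14 dpi. After resection it was at 2964, 379 and 1727 CPM at 1 dpi and at 620.4 and 212 CPM at 5 dpi. Like nppa, nppb was above sham in all 4 injured hearts at 5 dpi, but at 14 dpi 1 cryoinjured heart lay within the sham range. In the test over the 8 groups nppb was called (edgeR F test, adjusted p = 7.38e-06), as were 4.67% of all genes. As nppb was picked by its r with nppa, which was called in that test, neither this call nor the likeness is separate evidence. CPSF1, TES, HK2 and FDPS followed nppa with r between 0.76 and 0.81.

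For myh6 the closest gene was TNNC1, the row ENSDARG00000037539 of a troponin C, the calcium-binding subunit of the troponin complex (r = 0.94), followed by alpk2, smtnl1, si:dkey-33o22.1 and KCNAB2 with r between 0.82 and 0.84. TNNC1 was lowest, at 58.8 CPM, in the library with the least myh6, and it stood at 74.6 and 2350.3 CPM in the 2 sham hearts at 5 dpi, in which myh6 stood at 92.0 and 14121 CPM.

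**Figure D4:**
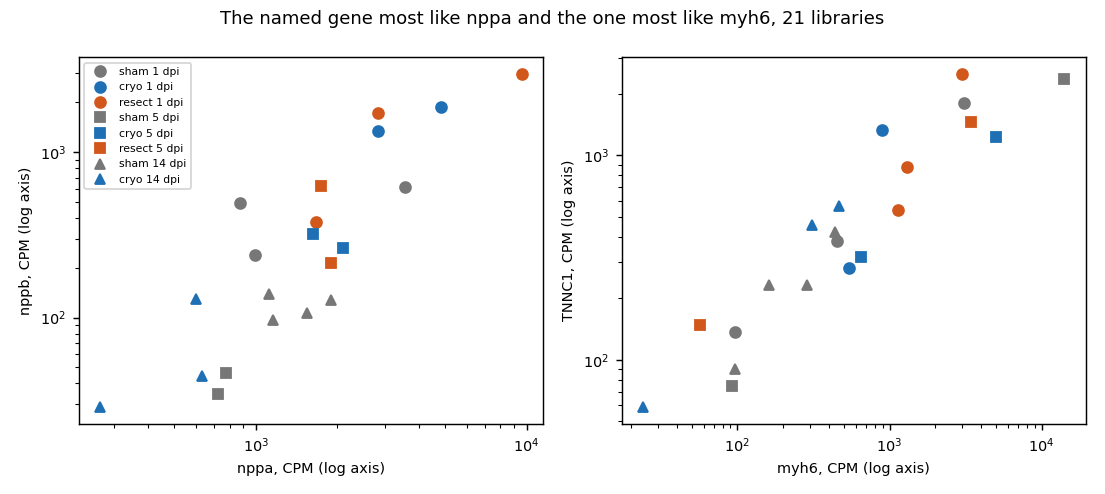
Level of nppb against nppa (left) and of TNNC1 against myh6 (right) in the 21 libraries, in CPM on log axes. Each point is 1 library, coloured by treatment (sham grey, cryoinjury blue, resection orange) and shaped by day (circle 1 dpi, square 5 dpi, triangle 14 dpi). Both pairs rise together, with r of 0.86 and 0.94, and each partner was picked as the named gene with the highest r.

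For myl7 the closest genes were of mitochondria and fuel use: micos10, of the inner membrane scaffold (r = 0.83), NDUFB6, of respiratory complex I (r = 0.83), pdha1a, of pyruvate dehydrogenase (r = 0.81), MDH2, malate dehydrogenase (r = 0.80) and the fatty acid carrier FABP3 (r = 0.78). For tnnt2a they were tpm4a, a tropomyosin of the thin filament (r = 0.87), dtnba, a dystrobrevin (r = 0.79), tlr3, a toll-like receptor (r = 0.78), the MYH7 row (r = 0.77) and BNIP3 (r = 0.74). For vmhc they were col6a1, a collagen VI chain (r = 0.86), NDST4 (r = 0.82), LAMA5, a laminin chain (r = 0.82), ALDH9A1 (r = 0.77) and adh5 (r = 0.76). TNNC1 was the only gene above 0.9 for any of the 5, and unnamed rows were passed over 1 time for myh6 and 2 times for tnnt2a.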

How the data were processed

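Nuclear RNA of 21 libraries was amplified with SMART-seq v4 and prepared with Nextera XT. Per the labels and the study's methods, paired reads were aligned to zebrafish build danRer10 with STAR 2.4.2a and counted per gene with featureCounts at standard settings. The deposited table holds raw counts per gene, whole numbers that the authors did not normalise, in 23 columns. Of these, 2 matched no sample and were not used, and 1 gene with missing values was left out. Labels mark 3 libraries as merged.

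CPM were computed from total counts over all genes. Tests used edgeR 4.0.16 in R 4.3.3 (filterByExpr, TMM, glmQLFit, glmQLFTest) on the libraries of the groups compared, with Benjamini-Hochberg adjustment over all genes tested and calls under 0.05. Calls were checked with DESeq2 1.42.0, its size factors, no TMM, other filters, 1 fit over 21 libraries, round or replicate number as a block, without merged libraries and leaving out each library. Scripts were tested on simulated data. P-values weigh the difference between groups against the spread between libraries.

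Named genes were the 5 members, for each member the 5 genes with the highest r, and up to 4 genes of a list with the most counts. The members and lists were chosen with earlier results of these data known. Of 31952 IDs 26121 had a symbol. Gene lists of fast skeletal muscle, erythroid, endothelial, fibroblast and smooth muscle cells served as markers. Promoter and protein sequences were not analysed here.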

Additional observations from a re-analysis of the deposited data

Results flagged for a closer look

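Nppa lay on opposite sides of sham at 2 days after cryoinjury. At 5 dpi both cryoinjured hearts (2094 and 1621 CPM) were above both sham hearts (773 and 726 CPM), and at 14 dpi all 3 (266, 634 and 603 CPM) were below all 4 sham hearts (1123 to 1895 CPM). The test of the difference, an edgeR interaction, gave -2.52 on the log2 scale (SE 0.59, unadjusted p = 0.000421, adjusted p = 0.530), and over the alternatives the value ran from -2.84 to -2.32 with an adjusted p from 0.00524 to 0.990.

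Tnnt2a lay the other way round. At 5 dpi both cryoinjured hearts (6016 and 5719.9 CPM) were below both sham hearts (10665 and 6243 CPM), and at 14 dpi all 3 (13902, 10234 and 9148 CPM) were above all 4 sham hearts (6097 to 8853 CPM). The same interaction gave 1.42 on the log2 scale (SE 0.49, unadjusted p = 0.00942, adjusted p = 0.648), and the alternatives ran from 1.09 to 1.61 with an adjusted p from 0.141 to 1.00. The differences were chosen after their values were seen, and day and round differ between these groups.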

How the results depend on the processing

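The 25 log2 fold changes printed for the 5 genes were those with an unadjusted p under 0.05 in the main edgeR fit. All 25 kept their sign in every alternative run for them. As they were chosen by that p, this says little about the stability of fold changes in general. Of 50 others, not printed as numbers, 39 changed sign in at least 1 alternative, and 8 passed the threshold in at least 1. The plot of log2 fold changes in 4 comparisons also draws some of these 50. Among them are myh6 and nppa for resection against sham at 1 dpi, which changed sign in 4 and 2 of 13 alternatives. Where 1 library is left out of a group of 2, the lone library is assumed to vary like the rest. Other calls depended on the setting as follows, and the cause was not tested.

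Counts of called genes are given in this order: resection against sham, cryoinjury against sham and resection against cryoinjury at 1 dpi, the same 3 at 5 dpi, cryoinjury against sham at 14 dpi, resection at 5 against 1 dpi, cryoinjury at 5 against 1 and at 14 against 5 dpi, sham at 14 against 1 dpi, the interactions of resection at 5 against 1 dpi and of cryoinjury at 5 against 1, 14 against 1 and 14 against 5 dpi, and any difference among the 8 groups. EdgeR called 2154, 19, 362, 0, 0, 0, 0, 302, 3, 0, 0, 0, 1, 12, 0 and 987. DESeq2 called 3515, 513, 4474, 82, 191, 123, 94, 2155, 664, 299, 1200, 1071, 279, 1014, 176 and 3548. Without a filter on low counts the calls were 225, 91, 891, 46, 64, 60, 172, 1147, 138, 114, 246, 180, 25, 270, 118 and 3673.

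Other settings are given only where the count moved by over 1.5-fold. At least 10 counts in every library left 1 and 6 calls for resection and for cryoinjury against sham at 1 dpi, gave 1 and 11 for cryoinjury against sham and resection against cryoinjury at 5 dpi, 5 for cryoinjury at 14 dpi, 41 for cryoinjury at 5 against 1 dpi, 21 for sham, and 0 and 3 for cryoinjury interactions at 5 and 14 against 1 dpi. Total counts only gave 0 for resection against cryoinjury at 1 dpi, 5 for cryoinjury at 5 against 1 dpi, and 5 and 7 for the interactions at 5 against 1 dpi. DESeq2 size factors in edgeR gave 6 for cryoinjury at 5 against 1 dpi. A fit of all 21 libraries gave 593, 125 and 238 at 1 dpi, 2 for cryoinjury at 14 dpi, 4 and 8 for resection and cryoinjury at 5 against 1 dpi, 1 for cryoinjury at 14 against 5 dpi, 120 for sham, and 12, 2 and 38 for the first 3 interactions.

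Leaving out 1 library at a time gave, in the same order, 0 to 177, 9 to 103, 0 to 7144, 1 to 1599, 1 to 261, 30 to 1437, 0 to 2, 21 to 941, 84 to 288, 0 to 26, 0 to 4, 0 to 2, 8 to 30, 1 to 109, 0 to 151 and 473 to 1722. The replicate block at 1 dpi gave 53, 47 and 303 calls for resection against sham, cryoinjury against sham and resection against cryoinjury. Same-numbered libraries there shared only 2 numbers and did not deviate together (r from -0.037 to -0.00056), so the numbers were not taken as pairs. With the block, myl7 (adjusted p = 0.498) and tnnt2a (adjusted p = 0.749) were not called for resection against sham, while against cryoinjury myl7 was called (adjusted p = 0.00927) and tnnt2a was not (adjusted p = 0.0747).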
